A study of Mus musculus with 12 samples.

Results

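SBE2 is a forebrain enhancer of Shh. The contacts described here are ligation products that join its 40 kb window on mouse chromosome 5 (29230000 to 29270000, mm9) to the rest of the Shh locus. A contact is a pair of HindIII fragments, one with its midpoint inside that window and the other with its midpoint outside it. Partners in the windows of Shh (28770000 to 28810000), SBE6 (28875000 to 28915000) and SBE4 (29125000 to 29165000) were set aside. By this rule 4214 of the 57970 fragment pairs of the locus were contacts of SBE2. The rule uses coordinates only, but it was set with earlier results of these data known. Of these, 2105 were above 0 in at least 1 library, as were 28980 pairs of the whole locus. The fragments fell into 2 classes of 176 and 165, and signal joined fragments of opposite class only. Of the contacts, 2107 joined fragments of the same class and were at 0 in every library, as were 2 of the 2107 that crossed the classes. The window holds 14 fragments, 7 of each class, and each had signal with 144 to 156 partners.

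The contacts were measured by 5C, chromosome conformation capture carbon copy, in which fixed chromatin is cut and religated and oligonucleotides placed at fragment ends are joined and sequenced wherever their fragments had been ligated. All groups derive from the mouse embryonic stem cell line 46c, which carries a reporter of the neural gene Sox1. The groups were untreated stem cells (ESC, 2 biological replicates), neural progenitor cells made from them by 7 days in N2B27 medium (NPC, 2 replicates), and stem cells transfected with constructs labelled tSBE6-Vp64 (1 replicate), tSBE2-Vp64 (1 replicate) and tSBE(6+2-Vp64) (2 replicates). The leading t was taken to mean a TALE, a designed DNA-binding protein aimed at the enhancer named after it, and Vp64 is a transcription activator. The labels do not say whether transfected cells were selected or pooled. A transfected group without the activator was not analysed here, so transfection and activation cannot be told apart. Expression of Shh or of cell type markers was not measured in these files, so the labelled cell types could not be checked.

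Shh encodes a secreted protein that patterns the neural tube, the forebrain and the limb. Its enhancers lie far from it in a gene-poor stretch that ends at Lmbr1, and they act within a domain of frequent contacts. SBE2 drives expression in the ventral forebrain, SBE4 in a wider forebrain territory, SBE6 in neural progenitors, and the ZRS, inside an intron of Lmbr1, in the limb bud. Stem cells do not express Shh at the level of neural tissue.

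Promoters are shown for the gene whose window held a pair of the highest long-range contacts described below and for its neighbour in the list, which did not pass the test. Both are the 250 bases before the RefSeq start on chromosome 5 of GRCm38.p6, a later build than the mm9 of the contact data, so the positions below are not comparable with those of the fragments. Ube3c, which encodes a ubiquitin ligase, has its stretch at chr5:29568992-29569241 on the plus strand. Mnx1, which encodes a homeobox factor of motor neurons, has its stretch at chr5:29478471-29478720 on the minus strand. Capitals mark the dinucleotide CG, which is the same on both strands.
Ube3c: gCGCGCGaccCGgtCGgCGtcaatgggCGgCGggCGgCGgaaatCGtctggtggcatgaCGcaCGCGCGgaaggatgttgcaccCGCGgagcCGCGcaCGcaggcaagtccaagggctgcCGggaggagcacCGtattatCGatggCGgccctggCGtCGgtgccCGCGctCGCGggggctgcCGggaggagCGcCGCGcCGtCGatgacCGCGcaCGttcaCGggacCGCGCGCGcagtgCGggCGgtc
Mnx1: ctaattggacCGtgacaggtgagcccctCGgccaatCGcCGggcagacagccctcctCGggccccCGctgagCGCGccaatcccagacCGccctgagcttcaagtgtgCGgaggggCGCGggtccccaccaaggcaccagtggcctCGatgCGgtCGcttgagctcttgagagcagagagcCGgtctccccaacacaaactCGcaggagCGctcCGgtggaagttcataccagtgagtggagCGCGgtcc
The Ube3c stretch holds 46 CG dinucleotides, a number that 0.323% of the 32851 promoters in the table reach or exceed, and the Mnx1 stretch holds 21 (16.3%). The median is 6, and 92.1% of the promoters hold at least 1. The cutting site of HindIII, AAGCTT, which reads the same on both strands, occurs in neither, and 6.22% of all such stretches hold it. Of the 9 listed genes with a contact window, 8 have a sequence in the table. Sequence of the SBE2 fragments themselves was not used here.

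Signal is given as reads of a fragment pair per 1000 reads of the library, and a level is the mean of that signal over the fragment pairs of a window or bin. The 11 distinct libraries differed in depth, from 0.978 to 48.1 M reads over the region, and between 682 and 2101 of the 2105 contacts were above 0 in a library. The shallowest libraries were NPC. Replicate 1 of NPC had libraries of 43.2 and 0.978 M reads, and replicate 2, as counted here, 1 library of 1.87 M. The ESC replicates had 22.0 and 20.7 M, so NPC and ESC were not compared at like depth. The part of depth in their differences was not tested. Pairs over 50 kb apart held 37.3% and 40.6% of the signal in the ESC replicates and 69.0% to 76.4% in the NPC libraries. In tSBE(6+2-Vp64) replicate 1, technical replicate 1 stood apart, with 99.8% of the contacts above 0 and 82.9% of its signal over 50 kb, against 32.4% to 82.7% and 30.2% to 59.8% in the other 3 libraries of the group. Across the 2105 contacts, which are not independent, log2 signal of the ESC replicates correlated at 0.30, of the NPC replicates at 0.34 and of the tSBE(6+2-Vp64) replicates at 0.38. Correlations between replicates of different groups ran from 0.25 to 0.59, a range that holds all 3 values within groups.

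The contacts of SBE2 held between 2.78% and 4.85% of the signal of a biological replicate, and the groups were not separated. The share was 4.04% and 3.22% in the ESC replicates (3.63% ± 0.576, SD, n = 2) and 3.32% and 3.00% in the NPC replicates (3.16% ± 0.227, n = 2). It was 4.60% in tSBE6-Vp64, 3.27% in tSBE2-Vp64, and 4.85% and 2.78% in tSBE(6+2-Vp64) (3.81% ± 1.46, n = 2). The tSBE6-Vp64 value and 1 tSBE(6+2-Vp64) value lay above both ESC values, 1 replicate each of NPC and tSBE(6+2-Vp64) lay below both, and the rest lay between them. Shares were not tested, since with 2 replicates a side the smallest exact permutation p is 0.333. The NPC mean minus the ESC mean was -0.466 percentage points, and it turned to 1.00 when 21 long-range pairs of very high signal were left out of every library. Of those 21, 1 is a contact of SBE2.

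In NPC less of the SBE2 signal ended between SBE2 and the Lmbr1 promoter than in ESC, and more ended beyond that promoter. With the locus cut into 4 zones, the stretch between SBE2 and the Lmbr1 promoter, the part of the Shh domain away from Shh, took 50.6% and 52.1% of the SBE2 signal in ESC and 28.1% and 34.5% in NPC. The stretch beyond the Lmbr1 promoter, with Nom1, Mnx1 and Ube3c, took 8.08% and 9.83% in ESC and 22.4% and 20.1% in NPC. The groups did not overlap in either zone. In the former zone 1 pair of adjacent fragments 1.88 kb apart, Shh_300 with Shh_301, held 13.3% of the SBE2 signal in each ESC replicate. The same pair held 4.28% and 3.94% in NPC. In the zone between Shh and SBE2 the groups did overlap, with 32.0% and 24.1% in ESC and 36.9% and 31.3% in NPC. Beyond Shh the ESC values were 9.37% and 13.9% and the NPC mean was 13.3% ± 1.06 (SD, n = 2), and these also overlap. The 4 shares add to 100% in each replicate and are not independent.

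The transfected groups did not all follow ESC in these zones. In tSBE6-Vp64 the share between SBE2 and the Lmbr1 promoter was 48.8%, and beyond that promoter 6.59%, each below both ESC values. In tSBE2-Vp64 the same zones held 35.0% and 24.7%. In tSBE(6+2-Vp64) the former held 38.7% and 38.6%, below both ESC values, and the latter 15.8% and 15.5%, above both. The order beyond the Lmbr1 promoter was tSBE2-Vp64, NPC, tSBE(6+2-Vp64), ESC and tSBE6-Vp64. The places of tSBE2-Vp64 and tSBE6-Vp64 in it rest on 1 replicate each, with no spread of their own. As mean signal per fragment pair, the zone beyond the Lmbr1 promoter had 0.00638 and 0.00620 in ESC, 0.0146 and 0.0118 in NPC, 0.00593 in tSBE6-Vp64, 0.0158 in tSBE2-Vp64, and 0.0150 and 0.00843 in tSBE(6+2-Vp64). Pairs of high signal carried part of these shares. Without the 9 contacts that were among the 3 highest of any group, NPC minus ESC beyond the Lmbr1 promoter went from 12.3 to 9.43 points, and between SBE2 and that promoter from -20.1 to -9.22 points. Between Shh and SBE2 it went from 6.08 to -4.10 points, a change of direction.

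**Figure D1:**
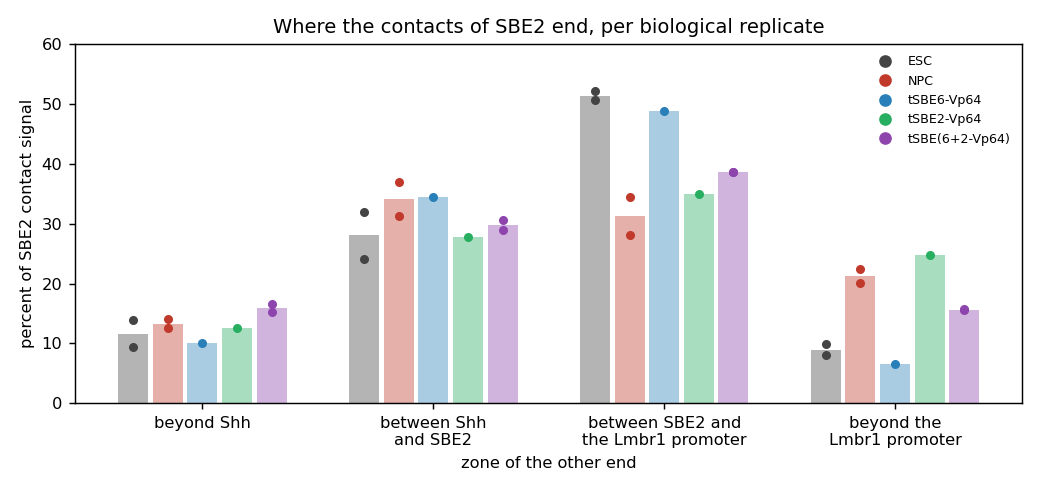
Percent of the SBE2 contact signal whose other end lies in each of 4 zones; points are biological replicates and bars their mean, by group. In the zone beyond the Lmbr1 promoter the 2 NPC replicates (22.4% and 20.1%) and tSBE2-Vp64 (24.7%) lie above both ESC replicates (8.08% and 9.83%).

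Contacts of SBE2 with its close surroundings were lower in NPC than in ESC, as they were elsewhere in the locus. Over the 10 contacts under 20 kb, mean signal was 0.697 and 0.541 in ESC and 0.219 and 0.208 in NPC. The same measure was 0.675 in tSBE6-Vp64, 0.322 in tSBE2-Vp64, and 0.338 and 0.411 in tSBE(6+2-Vp64). By this mean the NPC replicates were lowest and only tSBE6-Vp64 reached the ESC range. Most of the ESC mean came from 1 pair, Shh_300 with Shh_301 (5.39 and 4.28). The median of the 10 was 0.217 and 0.133 in ESC and 0.106 and 0.102 in NPC. It was 0.229 in tSBE6-Vp64, 0.125 in tSBE2-Vp64, and 0.101 and 0.109 in tSBE(6+2-Vp64). By the median NPC was below ESC but not lowest, and tSBE6-Vp64 was above both ESC replicates. Over the other 789 pairs of the locus under 20 kb, ESC had 0.702 and 0.690 and NPC 0.255 and 0.307. Of the 79 contacts of SBE2 under 50 kb, 39 had both NPC values under both ESC values (49.4%) and 2 had them above (2.53%). Of all 1772 pairs of the locus under 50 kb, 50.1% had them under and 3.84% above. The shares among the contacts of SBE2 were thus close to those of the locus.

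Between 200 and 400 kb the 521 contacts had a mean signal of 0.0186 and 0.0128 in ESC and 0.0108 and 0.0124 in NPC, so both NPC means lay below both ESC means, 1 of them by little. By the median contact of that band NPC, at 0.00475 and 0.00535, lay between the ESC replicates, at 0.0138 and 7.26e-04. The 5166 other pairs of the locus in that band had 0.0156 and 0.0143 in ESC and 0.0312 and 0.0310 in NPC, so NPC lay above both ESC replicates. Between 400 and 1000 kb the contacts had a mean of 0.00677 and 0.00908 in ESC and 0.0112 and 0.00984 in NPC. The other pairs had 0.00916 and 0.0129 in ESC and 0.0260 and 0.0235 in NPC. By the mean, both sets had NPC above both ESC replicates. The median contact of SBE2 in this band had 0.00342 and 0 in ESC and 5.11e-04 and 5.35e-04 in NPC. Both NPC medians are at the level of 1 read in a shallow library, of 0.978 M reads in replicate 1 and 1.87 M in replicate 2. They lie at the floor, so the median does not place NPC against ESC in this band. The difference between SBE2 and the rest was not tested, and the rest holds 20 of the 21 long-range pairs of very high signal. The slope of log10 mean signal on log10 distance from 20 to 1000 kb was -0.711 and -0.484 for the contacts in ESC and -0.322 and -0.409 in NPC. For all pairs of the locus it was -0.675 and -0.480 in ESC and -0.239 and -0.348 in NPC. The contact slope was -0.730 in tSBE6-Vp64, -0.432 in tSBE2-Vp64, and -0.390 and -0.468 in tSBE(6+2-Vp64). Over all pairs of the locus the slope was -0.657, -0.351, and -0.367 and -0.386 in the same order. A slope nearer 0 means that signal falls less with distance, and all but tSBE6-Vp64 were nearer 0 than both ESC replicates. The NPC slope minus the ESC slope was 0.232. It was 0.118 when ESC replicate 1 was left out and 0.345 when ESC replicate 2 was.

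**Figure D2:**
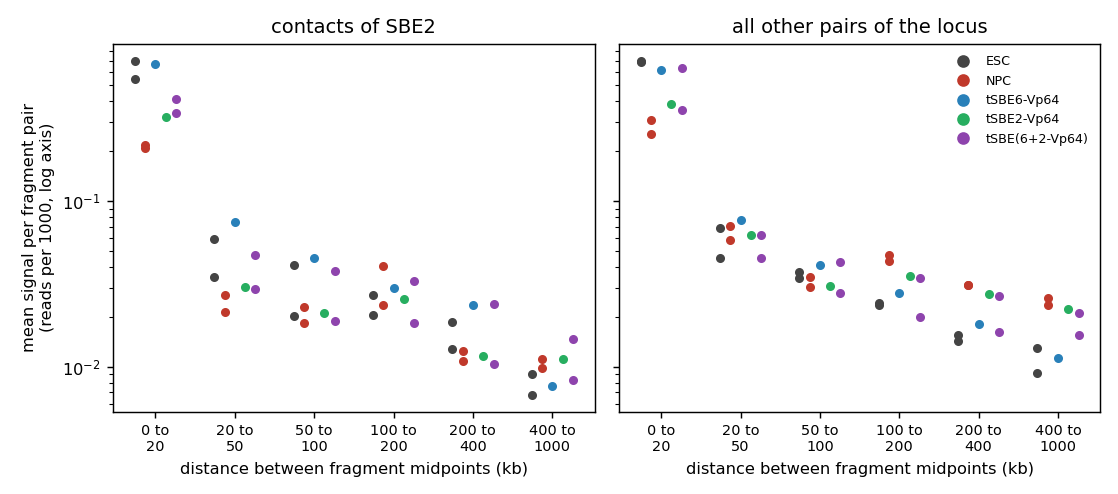
Mean signal per fragment pair (log axis) in 6 distance bands for the contacts of SBE2 (left) and all other pairs of the locus (right); each point is a biological replicate. Under 20 kb both panels show NPC lowest (0.219 and 0.208 at left), and from 200 to 400 kb NPC is high at right (0.0312 and 0.0310) but not at left (0.0108 and 0.0124).

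The windows of 10 known genes and enhancers were then taken one by one. Each spans 40 kb centred on the approximate place of a promoter or enhancer in mm9, and the test was limma's on log2(level + 0.00359), fitted over 91 pairs among 14 elements. The positions were written down after the highest fragment pairs had been seen, the pair of Shh_289 with Shh_523 in the Ube3c window among them. The test of that window is therefore not independent of its value, and it is given as a description only. In NPC 1 of the 10 SBE2 pairs passed and was higher, against 2.20% of the 91 pairs called in either direction. The median log2 difference was -0.03 over the 10 pairs and -0.07 over the 91. That 1 pair, SBE2 with Ube3c, missed the threshold when any 1 of the 4 ESC and NPC replicates was left out, with log2 differences of 1.83 to 2.25. The spread used for element pairs came wholly from the trend over all 91, which share windows, so the p of element pairs may be too small. In tSBE6-Vp64, tSBE2-Vp64 and tSBE(6+2-Vp64), 0 of the 10 pairs passed by limma, as did 0% of the 91 in each, and at an unadjusted p under 0.05 there were 0, 1 and 1 of the 10, against 0%, 3.30% and 3.30% of the 91. In NPC it was 1 of the 10, against 4.40%. Without tSBE(6+2-Vp64) replicate 1 or without replicate 2, the tSBE2-Vp64 log2 difference of SBE2 with Ube3c was 2.22 and 2.13.

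The window of Ube3c lies 645 kb from SBE2 on the far side of Lmbr1, outside the Shh domain. Its level over 63 contacts was 0.00621 and 0.0102 in ESC, 0.0506 and 0.0393 in NPC, 0.00740 in tSBE6-Vp64, 0.0492 in tSBE2-Vp64, and 0.0265 and 0.0278 in tSBE(6+2-Vp64). Both NPC replicates, tSBE2-Vp64 and both tSBE(6+2-Vp64) replicates lay above both ESC replicates, and tSBE6-Vp64 lay between them. In tSBE(6+2-Vp64) the libraries of replicate 1 had 0.0262 and 0.0267, and those of replicate 2 were far apart, at 0.0433 and 0.0123. For NPC the log2 difference was 2.05 (SE 0.56, 95% interval 0.94 to 3.16, adjusted p = 0.0149 by limma). This p belongs to a window placed with its highest pair in view. On the 20 kb grid, which does not depend on that placing, the 2 bin pairs described below that overlap the window did not pass in NPC (adjusted p = 0.0704 and 0.141 by limma). For tSBE2-Vp64, with 1 replicate, it was 2.18 (SE 0.69, adjusted p = 0.160 by limma). For tSBE(6+2-Vp64) it was 1.40 (SE 0.56, adjusted p = 0.864 by limma), and without technical replicate 1 of replicate 1 it was 1.41 with an adjusted p of 0.0481 by limma. For tSBE6-Vp64 it was -0.08 (95% interval -1.44 to 1.28). The tSBE2-Vp64 difference passed in 5 of 20 alternative settings, among them without either tSBE(6+2-Vp64) replicate (2.22 and 2.13, adjusted p = 0.0132 and 0.00771 by limma) and without technical replicate 1 of replicate 1 (2.19, adjusted p = 0.00639 by limma). These comparisons share the ESC replicates. Across 20 alternative settings the NPC difference ran from 0.17 to 3.24 and passed in 13. The lowest value came from a window at the middle of the gene in place of its promoter.

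The Ube3c level rested on a few fragment pairs. Shh_289 (29243267 to 29246728) with Shh_523 (29897293 to 29900118) had a signal of 0 and 0.242 in ESC, 1.69 and 1.00 in NPC, 0.0904 in tSBE6-Vp64, 0.635 in tSBE2-Vp64, and 0.315 and 0.762 in tSBE(6+2-Vp64). Shh_288 (29240128 to 29243266) with Shh_522 (29896824 to 29897292) had 0.0149 and 0.0782 in ESC, 0.903 and 0.843 in NPC, 0.0888 in tSBE6-Vp64, 1.50 in tSBE2-Vp64, and 0.390 and 0.196 in tSBE(6+2-Vp64). By replicate mean, both pairs were above both ESC replicates in NPC, in tSBE2-Vp64 and in tSBE(6+2-Vp64). The libraries of tSBE(6+2-Vp64) did not all do so. Shh_289 with Shh_523 had 0.240 and 0.390 in those of replicate 1 and 1.34 and 0.184 in those of replicate 2. Shh_288 with Shh_522 had 0.0807 and 0.699 in replicate 1 and 0.349 and 0.0432 in replicate 2. Shh_288 and Shh_289 are neighbours, as are Shh_522 and Shh_523, and the crossed combinations join fragments of the same class, which carry no signal in this assay. The highest pair made up 52.9% and 40.4% of the NPC level. Without it the NPC difference was 1.53 and no longer passed (adjusted p = 0.990 by limma, over pairs that each lost their highest member). With both pairs left out, the level was 0.00617 and 0.00533 in ESC, 0.00983 and 0.0104 in NPC, 0.00471 in tSBE6-Vp64, 0.0158 in tSBE2-Vp64, and 0.0158 and 0.0130 in tSBE(6+2-Vp64), and the NPC replicates still lay above both ESC replicates. Of the 63 fragment pairs, 14 (22.2%) had both NPC values above both ESC values and 4 (6.35%) had them under. Among all 28980 pairs those shares were 10.7% and 19.4%, and among the 2105 contacts 11.3% and 19.8%.

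Higher contact with the Ube3c window was found for 1 other element. Of its 13 pairs with the other elements, 2 were higher in both NPC replicates than in both ESC replicates, and the same 2 passed by limma on this window: SBE2 and Insig1, a gene of sterol metabolism at the opposite end of the locus (0.0121 and 0.0144 in ESC, 0.0678 and 0.0720 in NPC, log2 2.13, adjusted p = 0.0149 by limma). Contact of Ube3c with Shh was 0.00762 and 0.0125 in ESC and 0.0106 and 0.00659 in NPC, which overlap.

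**Figure D3:**
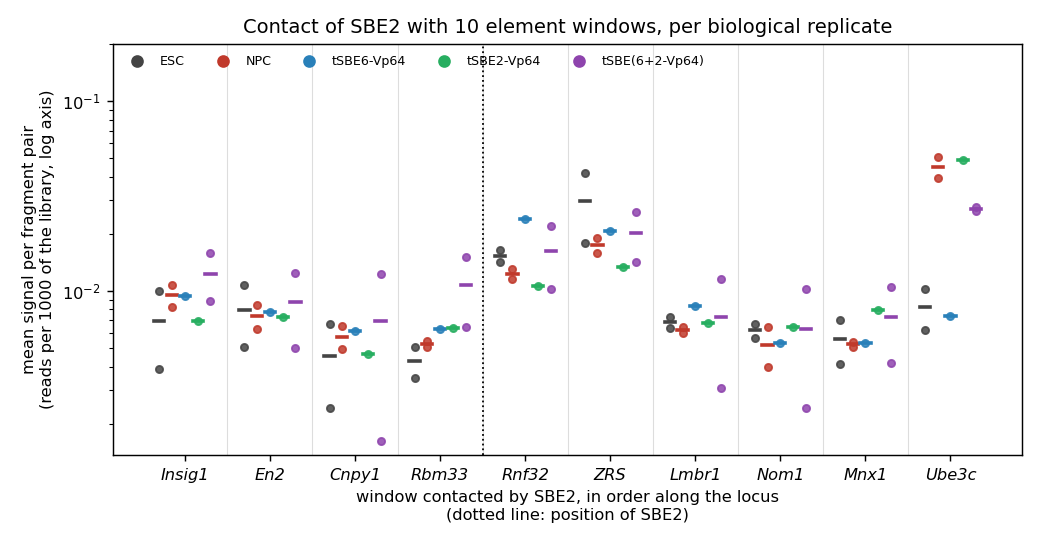
Mean signal per fragment pair (log axis) between SBE2 and 10 element windows in order along the locus; points are biological replicates, short lines their mean, and the dotted line marks the place of SBE2. The Ube3c window stands out, with NPC at 0.0506 and 0.0393, tSBE2-Vp64 at 0.0492 and ESC at 0.00621 and 0.0102.

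The other windows at or beyond the Lmbr1 promoter did not pass the test. Contact of SBE2 with Mnx1 had a level of 0.00700 and 0.00413 in ESC and 0.00537 and 0.00510 in NPC, within the ESC range (log2 -0.03, 95% interval -1.40 to 1.33). With Nom1, which encodes a nucleolar protein, it was 0.00567 and 0.00674 in ESC and 0.00398 and 0.00644 in NPC, which overlap (log2 -0.17). With the Lmbr1 promoter it was 0.00638 and 0.00732 in ESC and 0.00604 and 0.00649 in NPC (log2 -0.08, 95% interval -1.35 to 1.19), again overlapping.

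Within the Shh domain on the Lmbr1 side, SBE2 was measured against Rnf32, which encodes a ring finger protein, and against the ZRS. With Rnf32 the level was 0.0164 and 0.0143 in ESC, 0.0115 and 0.0131 in NPC, 0.0239 in tSBE6-Vp64, 0.0106 in tSBE2-Vp64, and 0.0221 and 0.0103 in tSBE(6+2-Vp64). NPC and tSBE2-Vp64 lay below both ESC replicates and tSBE6-Vp64 above, while the tSBE(6+2-Vp64) replicates stood on either side of ESC. The NPC difference was -0.25 (SE 0.55, adjusted p = 0.994 by limma). With the ZRS the level was 0.0178 and 0.0418 in ESC, 0.0191 and 0.0158 in NPC, 0.0208 in tSBE6-Vp64, 0.0134 in tSBE2-Vp64, and 0.0262 and 0.0143 in tSBE(6+2-Vp64). The high ESC value came from replicate 2, where the pair Shh_287 with Shh_447 made up 44.8% of it. The NPC difference at the ZRS was -0.57 (SE 0.56, adjusted p = 0.994 by limma), and it was 0.03 without the long-range pairs of very high signal. With each signal divided by the mean at the same distance it was -1.73 and passed (adjusted p = 0.0170 by limma).

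On the other side of Shh, 4 genes were set against SBE2. For each of them the highest level of all replicates was that of tSBE(6+2-Vp64) replicate 1 (0.0123 to 0.0159), the replicate whose technical replicate 1 stood apart. Contact with En2, a homeobox gene of the midbrain and hindbrain, was 0.00507 and 0.0108 in ESC and 0.00842 and 0.00632 in NPC, within the ESC range. With Cnpy1 it was 0.00673 and 0.00241 in ESC and 0.00496 and 0.00654 in NPC, also within it. With Rbm33, which encodes an RNA-binding protein, it was 0.00510 and 0.00347 in ESC, 0.00548 and 0.00508 in NPC, 0.00628 in tSBE6-Vp64, 0.00639 in tSBE2-Vp64, and 0.0151 and 0.00643 in tSBE(6+2-Vp64). For Rbm33 the transfected replicates lay above both ESC replicates and NPC overlapped them, with log2 differences of 0.18 for NPC and 0.81 for tSBE(6+2-Vp64) (SE 0.67 each), neither passing. With Insig1 it was 0.0100 and 0.00389 in ESC and 0.00823 and 0.0108 in NPC, which overlap. Summed up by sign, 4 of the 10 windows had a positive NPC difference and 6 a negative one.

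A test on even 20 kb bins looked at contacts that the element list does not cover. The 156 bin pairs with 1 end in the SBE2 window were tested with all 3534 bin pairs of the locus, on log2(level + 9.00e-04). In NPC 1 of the 156 rose, against 0.481% of all bin pairs, and 0 fell, against 0.198%. By unadjusted p under 0.05 there were 6 of the 156, or 3.85%, against 8.83% of all bin pairs. The median log2 difference was -0.23 over the 156 and -0.30 over all bin pairs. By overlap alone, 19 of the 156 had both NPC values above both ESC values, or 12.2%, against 13.1% of all, and 51 had them under, or 32.7%, against 29.8%. The shares of the SBE2 bin pairs were thus close to those of the locus. The count of 1 became 4 without ESC replicate 2, where 2.12% of all bin pairs passed, and 0 without NPC replicate 1, where 0.99% did. It was 0 without tSBE(6+2-Vp64) replicate 1 or replicate 2 and without technical replicate 1 of that replicate 1, where 0% of all bin pairs passed.

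The bin pair that rose joined 29230000 to 29250000, the Shh side of the SBE2 window, with 29070000 to 29090000, a stretch between SBE6 and SBE4 that holds no listed element. Its level over 12 contacts was 0.0187 and 0.0162 in ESC, 0.490 and 0.176 in NPC, 0.0504 in tSBE6-Vp64, 0.174 in tSBE2-Vp64, and 0.121 and 0.119 in tSBE(6+2-Vp64). The replicates of the other 4 groups all lay above both ESC replicates. The NPC log2 difference was 4.01 (SE 0.62, adjusted p = 0.0163 by limma). The difference was 3.26 in tSBE2-Vp64 (SE 0.77, adjusted p = 0.207 by limma), 2.72 in tSBE(6+2-Vp64) (SE 0.62, adjusted p = 0.197 by limma) and 1.49 in tSBE6-Vp64 (SE 0.77). A single fragment pair, Shh_285 (29236381 to 29237108) with Shh_239 (29082328 to 29083134), made up 98.2% and 94.1% of the NPC level. Without the highest fragment pair of each bin pair the NPC difference was -0.57, in the opposite direction.

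The pair of Shh_285 with Shh_239 was the highest contact of SBE2 in NPC. Its signal was 0.0332 and 0.0357 in ESC. In NPC it was 5.21 and 6.33 in the libraries of replicate 1 and 1.99 in replicate 2. It was 0.227 in tSBE6-Vp64 and 2.01 in tSBE2-Vp64. In tSBE(6+2-Vp64) it was 0.803 and 1.44 in the libraries of replicate 1 and 2.68 and 0.0414 in those of replicate 2. Every NPC library lay above both ESC replicates, while 1 library of tSBE(6+2-Vp64) replicate 2, at 0.0414, lay near ESC. The 20 other contacts within 3 measured fragments of it at both ends had a mean signal of 0.0266 and 0.0196 in ESC and 0.0161 and 0.0113 in NPC, so the high value did not extend to its neighbours. This pair alone held 17.4% and 6.62% of all SBE2 contact signal in the NPC replicates and 0.0823% and 0.111% in ESC.

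High single pairs were not found in NPC alone. Shh_287 with Shh_447, in the ZRS window, had a signal of 0.00547 in ESC replicate 1 and 1.58 in ESC replicate 2, with 0.539 and 0.407 in NPC, and 0.0199 in tSBE6-Vp64. Shh_289 with Shh_121 had 0.0152 and 0.813 in ESC and 0.253 and 0.250 in NPC. Shh_283 with Shh_124, at 514 kb, had 0.00219 and 0.652 in ESC, 0.529 and 0.267 in NPC, and 0.341 and 1.15 in tSBE(6+2-Vp64). In these 3 pairs both NPC replicates lay between the ESC replicates. The 10 highest contacts held 19.2% and 28.9% of the SBE2 signal in ESC, 41.0% and 26.8% in NPC, 16.3% in tSBE6-Vp64, 28.1% in tSBE2-Vp64, and 12.0% and 31.5% in tSBE(6+2-Vp64).

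**Figure D4:**
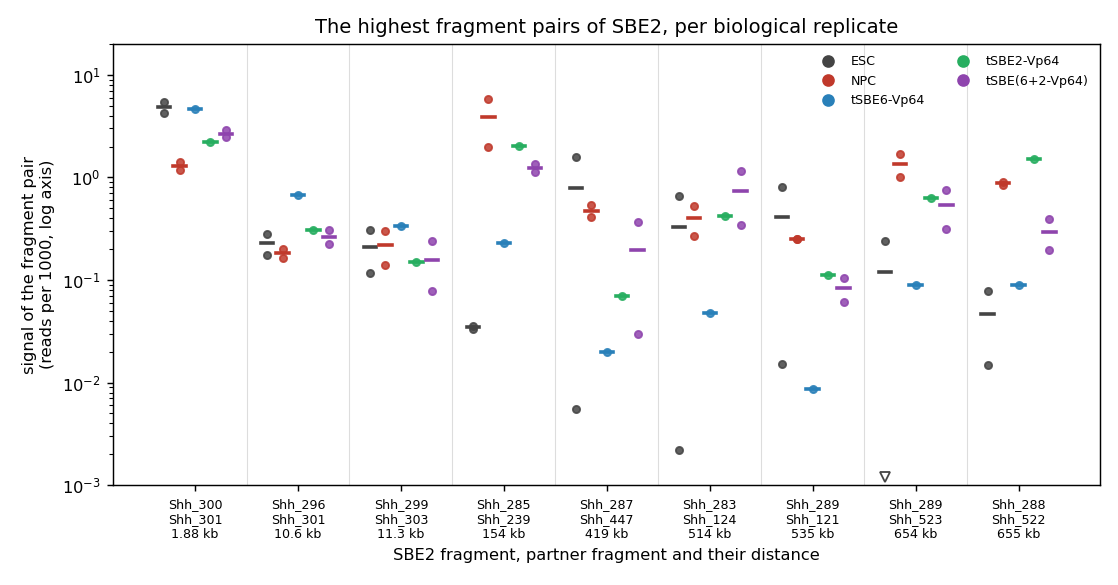
Signal (log axis) of the 9 contacts of SBE2 that were among the 3 highest of any group, in order of distance; points are biological replicates, short lines their mean, and an open triangle marks a value of 0. Shh_285 with Shh_239 separates NPC (5.77 and 1.99) from ESC (0.0332 and 0.0357), while 3 other long-range pairs span a wide range within ESC.

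The highest contact in ESC joined adjacent fragments at the Lmbr1 side of the window. Shh_300 (29268268 to 29270862) with Shh_301 had a signal of 5.39 and 4.28 in ESC, 1.42 and 1.18 in NPC, 4.63 in tSBE6-Vp64, 2.20 in tSBE2-Vp64, and 2.48 and 2.87 in tSBE(6+2-Vp64). NPC, tSBE2-Vp64 and tSBE(6+2-Vp64) lay below both ESC replicates, and tSBE6-Vp64 lay between them. In tSBE(6+2-Vp64) the libraries of replicate 1 had 0.157 and 4.81 and those of replicate 2 had 0.705 and 5.03, so 1 library of each lay within the ESC range and the other far below it.

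The 14 fragments of the window shared the signal unevenly. Summed over its contacts, Shh_300 had the most in ESC, 7.82 and 5.88, and 2.25 and 2.47 in NPC. Shh_285, only 728 bases long, had 0.726 and 0.502 in ESC and 6.38 and 2.32 in NPC, most of the latter from Shh_239. Shh_288 had 3.45 and 2.43 in ESC and 4.10 and 4.31 in NPC, higher in both NPC replicates. At the Lmbr1 end of the window, Shh_295 had 4.68 and 1.97 in ESC and 1.30 and 1.81 in NPC, and Shh_297 had 3.66 and 1.48 in ESC and 1.33 and 1.46 in NPC, below both ESC replicates in either case. Shh_296 had 2.78 and 1.66 in ESC and 1.37 and 1.82 in NPC, which overlap. Between these, Shh_289 had 3.02 and 4.40 in ESC and 3.64 and 2.78 in NPC, Shh_290 1.97 and 2.06 in ESC and 1.58 and 1.84 in NPC, and Shh_291 3.37 and 1.89 in ESC and 2.36 and 2.60 in NPC. The remaining fragments, Shh_283, Shh_284, Shh_287, Shh_292 and Shh_299, had ESC means of 1.17, 1.83, 2.76, 1.19 and 2.47 and NPC means of 0.831, 2.00, 2.02, 1.17 and 2.77. Of these, Shh_287 had 2.12 and 3.39 in ESC and 2.06 and 1.98 in NPC. Away from the Lmbr1 end, Shh_287 and Shh_290 thus also lay below both ESC replicates in NPC.

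For the constructs with 1 replicate, bins were read against both ESC replicates. In tSBE6-Vp64 89 of the 156 bin pairs of SBE2 lay above both ESC replicates, or 57.1%, against 44.9% of all bin pairs, and 16 below, or 10.3%, against 15.9%. The median log2 difference was 0.45 for SBE2 and 0.42 for all. By limma 0 of the 156 passed, as did 0% of all bin pairs, and 0 of the 156 had an unadjusted p under 0.05, against 1.16% of all. Without ESC replicate 1 the count passing was 1, against 1.13% of all. The 3 smallest p belonged to the bin at 29230000 with those at 29070000 (log2 1.49), 28930000 (log2 2.01, SE 1.20) and 29370000 (log2 -1.54, SE 0.98). The contact with 28930000, on the SBE2 side of SBE6, had a level of 0.0102 and 0.00310 in ESC and 0.0259 in tSBE6-Vp64. The contact with 29370000 had 0.0673 and 0.0239 in ESC and 0.0132 in tSBE6-Vp64.

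In tSBE2-Vp64, whose construct is named for this enhancer, 39 of the 156 lay above both ESC replicates, or 25.0%, against 26.0% of all bin pairs, and 55 below, or 35.3%, against 33.9%. The median log2 difference was -0.17 for SBE2 and -0.06 for all. By limma 0 of the 156 passed, as did 0% of all, and 3 of the 156 (1.92%) had an unadjusted p under 0.05, against 3.51% of all. The count passing was 2 when ESC replicate 1 was left out, against 0.764% of all, and 3 when ESC replicate 2 was, against 1.33%. The 3 of low unadjusted p were the bin at 29070000 named above and 2 bins that overlap the Ube3c window. The bin pair of 29230000 with 29890000 had a level of 0.00522 and 0.0208 in ESC, 0.121 and 0.0893 in NPC, 0.0124 in tSBE6-Vp64, 0.115 in tSBE2-Vp64, and 0.0464 and 0.0634 in tSBE(6+2-Vp64). The log2 difference was 3.33 in tSBE2-Vp64 (SE 0.88, adjusted p = 0.402 by limma), 3.18 in NPC (SE 0.72, adjusted p = 0.0704 by limma) and 2.26 in tSBE(6+2-Vp64) (SE 0.72, adjusted p = 0.853 by limma). The next bin, 29910000, had log2 differences of 2.91, 2.74 and 1.68 in the same order, none passing. In NPC 91.8% and 87.7% of its level came from 1 fragment pair.

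In tSBE(6+2-Vp64) 23 of the 156 lay above ESC in both replicates, or 14.7%, against 16.5% of all bin pairs, and 6 below, or 3.85%, against 4.75%. The median log2 difference was 0.11 for SBE2 and 0.26 for all. By limma 0 of the 156 passed, against 0.0283% of all, and 3 of the 156 (1.92%) had an unadjusted p under 0.05, against 3.40% of all, at the same 3 partner bins as in tSBE2-Vp64. The count passing was 1 when ESC replicate 1 was left out and 2 when ESC replicate 2 was, against 1.3% of all in each. The labels of tSBE2-Vp64 and tSBE(6+2-Vp64) both name SBE2 and that of tSBE6-Vp64 does not. The difference between the constructs was not tested.

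**Figure D5:**
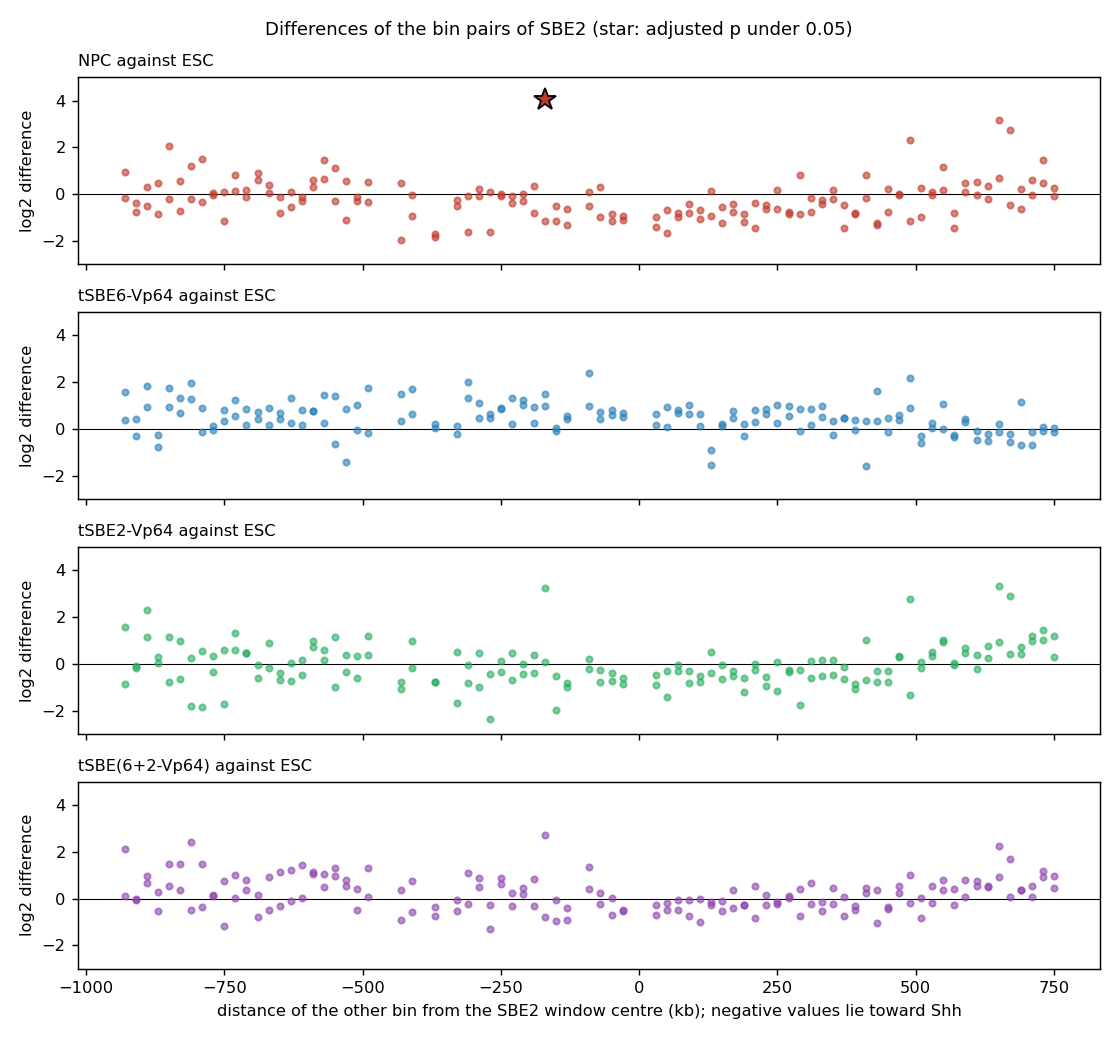
Log2 difference from ESC of the 156 bin pairs of SBE2 against the distance of the other bin from the window centre, by group; a star marks an adjusted p under 0.05 by limma. The single star, in NPC at a log2 of 4.01, lies toward Shh, and the highest points on the Lmbr1 side in NPC, tSBE2-Vp64 and tSBE(6+2-Vp64) are bins of the Ube3c window (3.18, 3.33 and 2.26).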

How the data were processed

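5C was read in 12 deposited matrices of the mm9 build, per the labels; the sources used here do not name the aligner or the read filters. The deposited signal is the reads of a fragment pair per 1000 reads of the library: in each library 100% of the low values were whole multiples of 1 step (tolerance 0.05 of a step). Depth was computed from that step. Reads without molecular identifiers are not independent molecules, and nothing says that replicates came from separate cultures, so p-values may measure technical spread only.

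An NPC library was present under both replicate numbers (largest difference 4.02e-08) and was counted once, in replicate 1. The 341 fragments present in every file were kept, each library was scaled to 1000 over them, and technical replicates were averaged, which left 8 biological replicates. Pairs at 0 in every library were left out of means. Levels of 20 kb bins (above 0 in at least 2 replicates) and of element windows were tested as log2(level + pseudocount), the 5th percentile of values above 0, with limma 3.58.1 (trend, two-sided) in R 4.3.3 and a joint model of 5 groups, with Benjamini-Hochberg adjustment at 0.05 over all features. A lone replicate was assumed to have the spread of the other groups. The model has 3 residual degrees of freedom, and for element pairs the spread came from the fitted trend. Folds near the pseudocount are shrunk. The script was tested on simulated data. Tables used Python 3.11.15, numpy 2.4.6 and pandas 2.3.3.

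Named were all 10 element pairs and, per comparison, up to 5 rises and 5 falls among passing bin pairs, or else the 3 with the smallest p. Also named were the 3 highest contacts of each group and every SBE2 fragment. Members and lists were chosen with earlier results of these data known. Element positions are approximate, from knowledge of the locus. An annotation in mm9 was not used, so exons and introns are not assigned.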

Additional observations from a re-analysis of the deposited data

Results flagged for a closer look

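Among the 4 libraries of tSBE(6+2-Vp64), replicate 1, technical replicate 1 was far above the other 3 in contact of SBE2 with Rnf32 and with the ZRS. With Rnf32 its level was 0.0342, against 0.0100, 0.0101 and 0.0105. With the ZRS its level was 0.0367, against 0.0139, 0.0148 and 0.0156. In both cases the gap to the nearest library exceeded the Dixon limit for 4 values. These are 2 of 16 measures examined, and chance flags about 1 in 20 for each measure alone. In this library 82.9% of the signal lay in pairs over 50 kb apart, against 48.7%, 59.8% and 30.2% in the others, and its part in the 2 results was not tested.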

How the results depend on the processing

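The number of passing SBE2 bin pairs in NPC, 1 as reported, was 0 at the 1st percentile pseudocount, after division by the mean at the same distance, without the highest fragment pair of each bin pair, in 10 kb bins, in limma without trend, and without technical replicate 1 of tSBE(6+2-Vp64) replicate 1. Of all bin pairs of the locus, 0.679% passed as reported, 0.0566% at the 1st percentile and 0% in each of the other settings just named. The number for SBE2 was 2 at the 20th percentile, without the long-range pairs of very high signal, in 40 kb bins and with the duplicated NPC library counted in replicate 2. In these settings 1.36%, 0.736%, 3.26% and 0.707% of all bin pairs passed, in that order. With the replicate number as a block (replicate block) the number for SBE2 was also 2, against 1.05% of all bin pairs. That block changed no call of the element pairs. The numbers share no stated source: correlations of replicate differences between groups were -0.05, 0.20 and -0.01 over 3534 bin pairs. Leaving out 1 replicate gave 0 to 4 in NPC, 0 to 1 in tSBE6-Vp64, 0 to 3 in tSBE2-Vp64 and 0 to 2 in tSBE(6+2-Vp64). For element pairs of SBE2, NPC had 2 after division by the mean at the same distance, against 6.59% of all 91. It had 0 without the highest fragment pairs, with windows of 40 kb to either side and with windows at gene midpoints. There 0%, 5.49% and 0% of all 91 passed. In tSBE2-Vp64 the number was 1 without the long-range pairs, with windows of 10 kb to either side and without technical replicate 1 of tSBE(6+2-Vp64) replicate 1, against 1.1% of all 91 in each. In tSBE(6+2-Vp64) it was 1 in the last of these settings, against 3.3%. Leaving out 1 replicate moved the number of SBE2 element pairs in NPC and in tSBE2-Vp64, and the number over all 91 did not always move with it.

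Of 800 recomputed element differences and 170 of named bin pairs, 94 changed sign within 1 SE of 0. Differences beyond 1 SE that changed sign were ZRS in NPC (0.03 without the long-range pairs), Insig1 in tSBE(6+2-Vp64) (-0.30 with windows of 10 kb to either side) and Rbm33 in tSBE(6+2-Vp64) (-0.15 with gene midpoints). The bin pair of 29070000 changed sign without its highest fragment pair in NPC (-0.57), tSBE2-Vp64 (-1.0) and tSBE(6+2-Vp64) (-0.29). Without the long-range pairs it was 0.12, -0.55 and -0.14. These 2 settings remove Shh_285 with Shh_239.

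Without the long-range pairs, the share of library minus ESC was 1.00 in NPC and 0.583 points in tSBE2-Vp64. In the zone between SBE2 and the Lmbr1 promoter NPC was then -15.9, and between Shh and SBE2 NPC was -2.92 and tSBE2-Vp64 -4.92. Beyond the Lmbr1 promoter NPC was then 15.4 and tSBE2-Vp64 17.4. Without the 9 highest contacts, a setting chosen after seeing the data, as were the gene midpoints and the technical replicate left out, NPC was 3.89 beyond Shh, -4.10 between Shh and SBE2, -9.22 between SBE2 and the Lmbr1 promoter, and 9.43 beyond it. In tSBE2-Vp64 it was -6.75, -8.45 and 12.9 in the last 3 zones, and in tSBE(6+2-Vp64) -2.34 and -7.60 in the former 2 of these. Other causes of change were not tested. Leaving out 1 replicate gave ranges, listed for NPC, then tSBE6-Vp64, then tSBE2-Vp64, then tSBE(6+2-Vp64), of -0.873 to -0.0584, 0.564 to 1.38, -0.768 to 0.0462 and -0.851 to 1.22 for the share of library. They were -0.600 to 3.92, -3.84 to 0.675, -1.40 to 3.12 and 2.02 to 6.53 beyond Shh. They were 2.15 to 10.0, 2.53 to 10.4, -4.20 to 3.65 and -2.16 to 5.69 between Shh and SBE2. They were -23.3 to -16.8, -3.29 to -1.71, -17.1 to -15.6 and -13.5 to -11.9 between SBE2 and the Lmbr1 promoter. They were 0.118 to 0.345, -0.246 to -0.0190, 0.0512 to 0.278 and 0.0546 to 0.282 for the slope. A count test with edgeR on recovered reads was planned and was not run. Counts and values kept within 1.5 times or 1 replicate SD in 122 of 156 and in 156 of 192 recomputations. A count that stayed at 0 was taken as kept, and the reported counts of every construct were 0. The 122 therefore do not describe the NPC counts, which moved in many settings, as listed above.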
